A study of Mus musculus and Homo sapiens with 14 samples.

Results

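Neurl3 encodes a RING-type E3 ubiquitin ligase of the Neuralized family, and its transcript was followed here over follicular B cells, plasma cells of 2 organs and plasma cell tumour lines. The gene was chosen from measured values, because it was higher in both mouse comparisons in which IRF4 was targeted. It is 1 of 26221 named genes in the mouse table, and its human counterpart NEURL3 is 1 of 27945 in the human table. Neurl3 values in those 2 mouse comparisons are therefore a description and carry no test.

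The 14 RNA libraries form 8 groups. For splenic plasma cells, bone marrow carrying Irf4 flox/- or Irf4 flox/+ was given together with uMT marrow, which makes no mature B cells, to congenically marked hosts. All of these hosts received tamoxifen on days 1, 2, 7 and 8, and donor plasma cells were sorted from the spleen on day 14, with 2 libraries per genotype. The Cre driver and the floxed exons are not given in the sources used here. The flox/+ controls carried a floxed allele and had tamoxifen too. Single libraries of wild-type splenic follicular B cells and wild-type bone marrow plasma cells, labelled C57BL/6 like all mouse samples, served as references. MPC-11, a mouse plasmacytoma line, and MM.1S, a human myeloma line, received Cas9 and, in one arm, a guide RNA to Irf4 and in the other an empty vector. Both arms were given doxycycline and were sorted on day 3 after deletion. Each line had 2 libraries per arm, and the guided arms are labelled Irf4 -/-. Nothing in the labels says whether replicates came from separate animals or cultures, so the spread between them may be technical.

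The Neuralized proteins combine Neuralized repeats, which bind partner proteins, with a RING finger that recruits the ubiquitin-conjugating enzyme. The founding fly protein ubiquitinates Notch ligands so that they are taken up by the cell that displays them. NEURL3 itself is best known from lung epithelium, where inflammatory stimuli induce it, and from antiviral responses, where it was reported to act on IRF7, the factor that drives type I interferon. IRF4 is the transcription factor that plasma cells need to form and to survive, and it binds DNA alone at interferon-type sites or with partners of the ETS and AP-1 families.

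Mouse Neurl3 (Entrez 214854) lies on the minus strand of chromosome 1, from 36264602 to 36274674 in mm10. No other RefSeq gene overlaps it, so reads of a neighbour on the opposite strand are not counted into it, which matters because the library kit does not mark strand. GENCODE lists 2 protein-coding transcripts of 4 exons each. One starts at 36273435 and has 762 coding bases. The other starts further upstream, at 36274679, and has 585. The counts sum both and cannot say which was used.

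In the 300-base RefSeq window from 250 bases before to 50 after the start at 36273425 (GRCm38.p6, the mm10 assembly), 6 motifs were searched on both strands. Matches were found for the kappa-B motif, GGGAC followed directly by TTTCC, to which NF-kB factors bind, and for the TATA motif TATAAA. Both stretches are shown 5′ to 3′ on the gene's strand, with the match in capitals, because they place these letters close to the start. They lie at chr1:36273516-36273545 and chr1:36273447-36273476.
kappa-B: gaggtcatggGGAAAGTCCCggatatcgtc
TATA: tgagctccagccTATAAAaggggaaccttc
The kappa-B match, which reads as the reverse complement, spans bases 110 to 101 before the start, and the TATA match spans bases 39 to 34. GENCODE places 158 of the 250 bases before the RefSeq start, both matches included, in an untranslated exon of the longer-reaching transcript. Of 32851 RefSeq windows of this length, 0.155% held the kappa-B letters and 13.6% held TATAAA. The ETS-IRF composite motif (GGAA, any 2 bases, GAAA, in 2.72% of windows), the interferon-type motif (GAAA, any 2 bases, GAAA, 3.44%) and TGANTCA (the AP-1 core, 7.81%) were not found in the Neurl3 window. GTGGGAA, bound by the Notch effector RBPJ, was not found there either and occurred in 6.38% of windows. The matches did not overlap, and a match in letters is not a measured binding site.

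Library depth was 18738283 to 27003585 counts in mouse and 19317115 to 21572315 in human. Levels are given in CPM, counts scaled to a library size that TMM corrects for a few very abundant transcripts. Immunoglobulin genes took 58.8% and 55.5% of the counts in the flox/- libraries, 75.6% and 77.2% in flox/+ and 3.25% in follicular B cells, which lowers every other gene on an uncorrected scale. The 10 plasma cell markers summed to 36710 and 33990 CPM with the flox/- genotype, 79640 and 99260 with flox/+ and 432 in follicular B cells. The flox/- library 1 stands apart, with 13 macrophage and monocyte markers at 8929 CPM against 833 in flox/- library 2 and 681 and 267 in flox/+. Its 8 erythroid markers summed to 847 CPM, against 5.64 to 47.2 in the other splenic plasma cell libraries. T cell markers were at 178 and 487 CPM in flox/- and 14.8 and 27.6 in flox/+. Follicular B cell markers were at 600 and 893 against 258 and 290. The bone marrow plasma cell library held 8 neutrophil markers at 808 CPM, against 0 to 11.7 in the other mouse libraries. Its follicular B cell markers summed to 742 CPM and its plasma cell markers to 53580.

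Neurl3 was abundant in follicular B cells and scarce in wild-type plasma cells of the bone marrow. The follicular B cell library held 4443 Neurl3 counts, or 113 CPM (95% Poisson interval 109.7 to 116). The bone marrow plasma cell library held 13 counts, or 1.17 CPM (0.624 to 2.01). The ratio was 96.4-fold, with a counting interval of 56.3 to 181. With 1 library each there is no replicate check, and 25.1% of 12676 genes were more than 2-fold higher in the follicular B cell library. Intervals cover counting error only. On the authors' length-scaled values Neurl3 stood at a log2 FPKM of 6.33 in follicular B cells, above the upper quartile of all listed genes, which was between 4.42 and 4.54 over the mouse libraries. In bone marrow plasma cells it stood at -0.38, below the median of 2.39 to 2.52.

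Splenic plasma cells of the flox/- genotype had more Neurl3 than flox/+ controls. The flox/- libraries 1 and 2 held 815 and 758 counts, or 40.5 and 37.8 CPM. The flox/+ libraries, called a and b, held 70 and 38 counts, or 6.42 and 3.25 CPM. Both flox/- libraries were above both controls, and their values lay within 1.85 CPM (SD) of a mean of 39.2, while the controls had a mean of 4.83 ± 2.25 (SD, n = 2). Fitted on these 4 libraries with edgeR, the log2 fold change was 3.00 ± 0.53 (SE). In this comparison 25.7% of 11887 genes lay higher in both flox/- libraries without overlap, and Neurl3 ranked 816 by fold change, so many genes were further apart. Without flox/- library 1, which held the most macrophage and erythroid transcript, the log2 fold change was 2.97. Without control a it was 3.60, and without control b 2.57. With library size alone in place of TMM it was 3.87, where the median over all genes was 0.98 instead of 0.09. Fewer cells with the transcript and less transcript per cell cannot be told apart in bulk RNA.

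The tumour line MPC-11 showed the same direction with a wider gap. The empty vector libraries held 31 and 54 Neurl3 counts, or 1.12 and 1.42 CPM. The libraries with the Irf4 guide held 1672 and 1653 counts, or 48.1 and 57.0 CPM. No guide library came near a control, with means of 52.5 ± 6.28 and 1.27 ± 0.213 CPM (SD, n = 2 each). The edgeR log2 fold change was 5.37 ± 0.44 (SE), rank 53 of 10670 genes, and in this line 16.9% of genes lay higher in both guide libraries without overlap. Of the 13 macrophage and monocyte markers 10 had no count in any MPC-11 library, but the list summed to 1166 and 1290 CPM with empty vector and 1315 and 943 with the guide. Cd68, a lysosomal protein, made up most of that, at 1140 and 1263 CPM against 1311 and 935 with the guide. All 7 NK cell markers had no count in the 4 libraries.

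**Figure D1:**
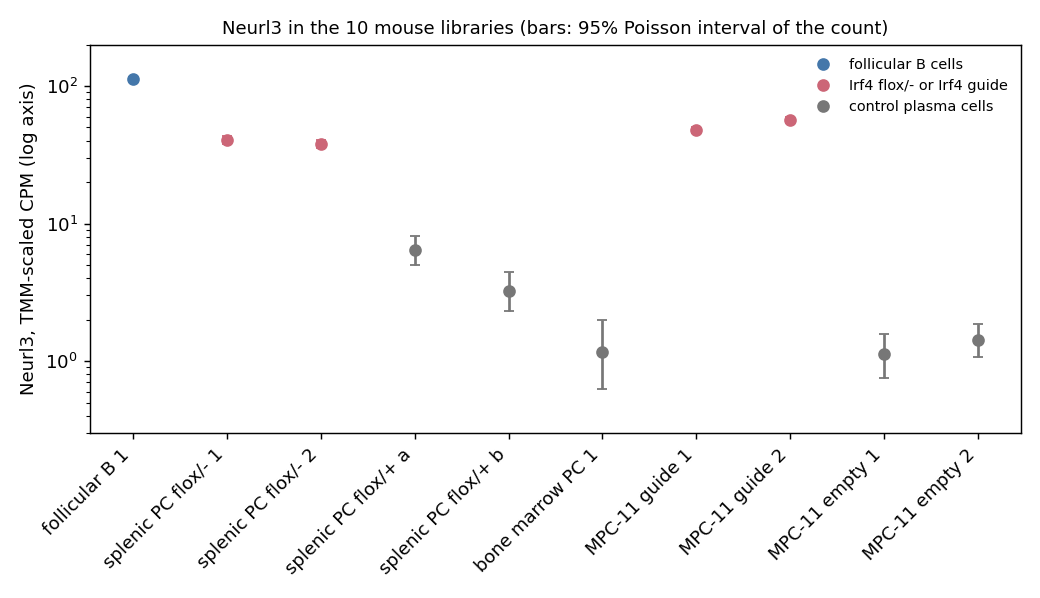
Neurl3 level in TMM-scaled CPM (log axis) in each of the 10 mouse libraries, with the 95% Poisson interval of the count as the bar. The guide and flox/- libraries lie between 37.8 and 57.0 CPM, below the follicular B cell library at 113 and above all control plasma cell libraries, which lie between 1.12 and 6.42.

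In order of level, follicular B cells at 113 CPM were followed by guided MPC-11 at 52.5, flox/- splenic plasma cells at 39.2, flox/+ splenic plasma cells at 4.83, MPC-11 with empty vector at 1.27 and bone marrow plasma cells at 1.17. On this scale the bone marrow value lay between the 2 empty vector libraries. With library size alone it was 0.603 CPM, below the empty vector libraries at 1.61 and 2.83. Guided MPC-11 and flox/- libraries did not overlap, but with 2 libraries each no exact test can reach 0.05 (the smallest two-sided p is 0.333). Flox/+ splenic plasma cells lay above empty vector MPC-11 with TMM, but with library size alone the flox/+ libraries had 1.41 and 3.15 CPM and overlapped them. The follicular B cell level was 2.15-fold that of guided MPC-11 and 2.89-fold that of flox/- plasma cells on the TMM scale, and 2.61-fold and 6.33-fold with library size alone.

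In the IRF4-targeted libraries Neurl3 was nearer to its follicular B cell level than any of 10 markers of those cells. Each gene was expressed as a percentage of its own level in the follicular B cell library, for Neurl3 and for 10 follicular B cell markers such as Ms4a1 (CD20), Cr2 and Pax5. In the flox/- libraries Neurl3 was at 35.8% and 33.5%. The 10 markers there ran from 0.360% to 16.3% (median 8.33%) in library 1 and from 2.72% to 23.2% (median 12.2%) in library 2, so none reached the Neurl3 value. In the flox/+ libraries Neurl3 was at 5.68% and 2.87%, with 3 and 4 of the 10 markers above it. The order within a library does not depend on scaling, but the percentages do: with library size alone Neurl3 was at 15.02% and 16.6% in flox/- and at 34.6% and 41.95% in guided MPC-11. These values include those by which Neurl3 was chosen, so its place above the markers is a description. The flox/- libraries held more follicular B cell transcript than the controls, and its part in the Neurl3 level was not tested.

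In guided MPC-11 Neurl3 was at 42.5% and 50.4% of the follicular B cell level with TMM. The highest marker there was Bank1, a B cell adaptor protein, at 6.79% and 4.41%, close to its 4.51% and 4.24% in the empty vector libraries. In those empty vector libraries Neurl3 was at 0.989% and 1.26%, with 1 of the 10 markers, Bank1, above it. Pax5 and Ciita had no count in any of the 4 MPC-11 libraries. In bone marrow plasma cells Neurl3 was at 1.04%, below 6 of the 10 markers, of which Ighd, the IgD heavy chain, was at 33.0%.

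**Figure D2:**
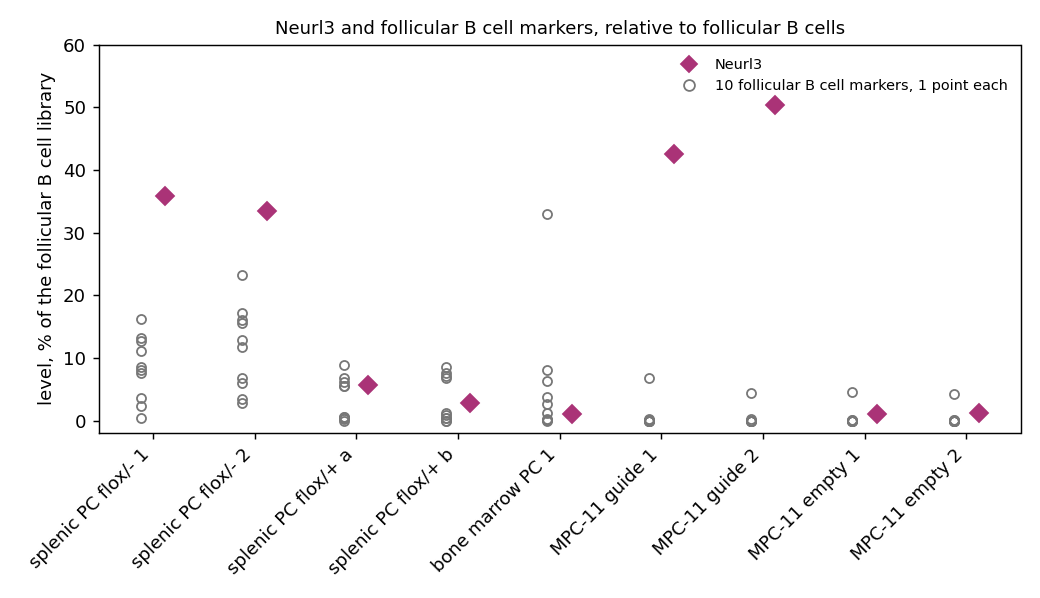
Level of Neurl3 (diamonds) and of 10 follicular B cell markers (circles) in each plasma cell library, as a percentage of the follicular B cell library, with TMM scaling. Neurl3 lies above all 10 markers in the flox/- libraries (35.8% and 33.5%) and in the guide libraries (42.5% and 50.4%). In the control libraries from 1 (MPC-11 with empty vector) to 6 (bone marrow) of the 10 markers lie above it.

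In human MM.1S cells NEURL3 was nearly undetected. The empty vector libraries held 0 and 1 counts and the guide libraries 0 and 11, so that all guide counts came from library 2. The guide-to-control ratio of scaled counts was 11.01 with a counting interval of 1.601 to 474. That interval pools the reads of each arm and leaves out the spread between libraries, so it is too narrow. The guide library with 0 counts lay below the empty vector library with 1. The gene did not pass edgeR's filter on low counts and was not tested in the main fit. In edgeR without that filter its log2 fold change was 3.05 ± 3.29 (SE, edgeR adjusted p = 0.892). A count of 0 allows up to 3 counts, which is 0.139 CPM in empty vector library 1 and 0.155 CPM in guide library 1, and the upper 95% Poisson limits there were 0.171 and 0.1902 CPM. NEURL3 is not among the genes listed in the authors' human log2 FPKM values.

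Irf4 transcript itself was measured in the same libraries. In MPC-11 it stood at 276 and 146 CPM with the guide and 467 and 496 with empty vector, a log2 fold change of -1.19 ± 0.37 (edgeR adjusted p = 0.592, both guide libraries lower). In MM.1S it stood at 142 and 191 against 489 and 434, with both guide libraries lower. The log2 fold change there was -1.47 ± 0.22 (edgeR adjusted p = 0.199, DESeq2 adjusted p = 4.44e-08). Over all genes, 1765 of 10670 in MPC-11 and 2398 of 12696 in MM.1S lay lower in both guide libraries. In splenic plasma cells the groups overlapped, with 82.7 and 99.8 CPM in flox/- and 114 and 53.8 in flox/+, and the log2 fold change was 0.12 ± 0.43 (edgeR adjusted p = 0.967). A gene count includes exons outside a deletion or a cut, so these values do not check whether IRF4 was lost. The CPM in this paragraph and in the gene lists below was scaled within each comparison.

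The other Neuralized genes were measured in the same libraries. Neurl2, known as Ozz, the substrate-binding subunit of a muscle ubiquitin ligase, was well detected in MPC-11 in both arms, at 368 and 397 counts with empty vector and 493 and 457 with the guide. Its log2 fold change there was 0.35 ± 0.42 (edgeR adjusted p = 0.9995). In the spleen it had 27 and 31 counts in flox/- and 1 and 0 in flox/+. The log2 fold change there was 4.77 ± 1.63 (edgeR unadjusted p = 0.0294, edgeR adjusted p = 0.321). Neurl2 had 211 counts in follicular B cells and none in bone marrow plasma cells. Neurl2 overlaps Ctsa, which was measured too, so unstranded reads could belong to either.

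Neurl4 is a large family member with Neuralized repeats and no RING finger. It had 191 and 107 counts in flox/- against 104 and 39 in flox/+, and 192 and 195 in guided MPC-11 against 9 and 345 in the controls. Its log2 fold changes were 0.19 ± 0.82 and 0.36 ± 1.23, and the groups overlapped in both comparisons. Neurl1a, which is best known from brain and muscle, had 152 counts in bone marrow plasma cells, 20 and 98 in flox/-, 0 and 11 in flox/+ and none in follicular B cells or MPC-11. Neurl1b had no count in any mouse library. On the authors' log2 FPKM values, which allow levels of different genes to be compared, Neurl3 at 6.33 exceeded Neurl2 at 3.39 and Neurl4 at 1.48 in follicular B cells. In MPC-11 with empty vector the order was turned, with Neurl2 at 4.67 and 4.31 and Neurl3 at 0.73 and 0.91.

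**Figure D3:**
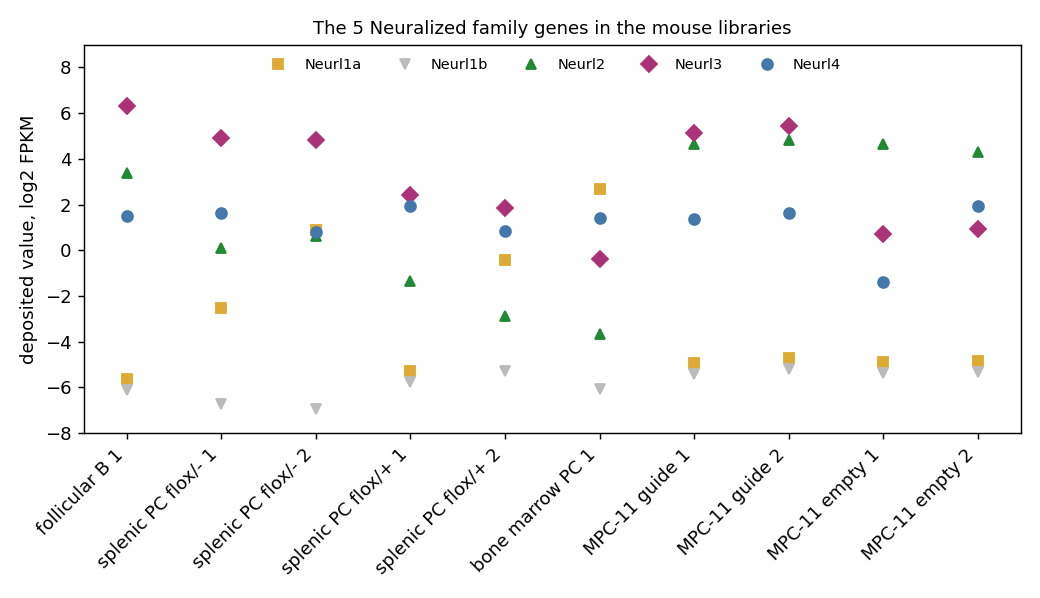
The authors' log2 FPKM of the 5 Neuralized family genes in each mouse library. Neurl3 is the highest of the 5 in follicular B cells (6.33), in the 4 splenic plasma cell libraries and in guided MPC-11 (5.12 and 5.46). In bone marrow plasma cells (-0.38) Neurl1a (2.67) and Neurl4 (1.42) are higher. In MPC-11 with empty vector Neurl2 is higher in both libraries, and Neurl4 (1.955) is higher in library 2.

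In MM.1S NEURL1 had 337 and 148 counts with empty vector and 272 and 120 with the guide. NEURL1B had 82 and 77 against 21 and 6, a log2 fold change of -2.51 ± 0.996 (edgeR adjusted p = 0.473), lower in both guide libraries. Of all 12696 genes tested there, 2398 lay lower in both guide libraries. NEURL2 had 16 and 0 counts against 24 and 34, and NEURL4 had 98 and 33 against 32 and 78. No other family member passed an adjusted p of 0.05 in edgeR or DESeq2 in any of the 3 comparisons. Over all genes edgeR called 0% in the spleen, 0.0187% higher in MPC-11 and 0.00788% lower in MM.1S. DESeq2 called 1.08% to 3.82% of all genes higher and 0.466% to 1.43% lower over the 3 comparisons.

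Because Neuralized ligases are known for Notch signalling, 48 genes of that pathway were read beside Neurl3: ligands, receptors, the enzymes that ubiquitinate, cleave or glycosylate them, and nuclear factors with their targets. In splenic plasma cells 40 were tested, 24 higher and 16 lower in flox/-, with a median log2 fold change of 0.15 against 0.09 over all genes. None passed an adjusted p of 0.05 in edgeR, where the background was 0% in either direction. At an unadjusted p under 0.05, 4 were higher and 1 lower, against 8.63% and 3.85% of all genes, and DESeq2 called 2 higher and 0 lower, against 3.82% and 1.43%. Those 2 were Lfng, a glycosyltransferase that tunes Notch receptors, and Dtx1, a Deltex ubiquitin ligase. Lfng had 9.74 and 4.70 CPM in flox/- and 0.176 and 0.0529 in flox/+, with a fold change of 5.94 ± 1.08 on the log2 scale (DESeq2 adjusted p = 5.09e-05, edgeR adjusted p = 0.275). Dtx1 had 18.4 and 38.4 CPM against 7.72 and 3.92, with a fold change of 2.29 ± 0.58 on the log2 scale (DESeq2 adjusted p = 0.0125, edgeR adjusted p = 0.281). The coactivator Maml3 had 63 and 66 counts against 0 and 1. The ligase Nedd4 was lower in both flox/- libraries, at 16.9 and 25.6 CPM against 54.5 and 39.2 (edgeR adjusted p = 0.316). Of all 11887 genes tested, 2178 lay lower in both flox/- libraries.

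In MPC-11, 36 Notch genes were tested, 27 higher and 9 lower with the guide, with a median log2 fold change of 0.22 against -0.02 over all genes. None passed in edgeR, where the background was 0.0187% higher and 0% lower, and 1 in each direction had an unadjusted p under 0.05 (3.49% and 2.56% of all genes). DESeq2 called 1 higher and 0 lower (background 1.08% and 0.466%). This was Dtx3l, at 52.9 and 39.8 CPM against 2.33 and 11.5 (DESeq2 adjusted p = 0.0206). Dtx3l overlaps Parp9, so its reads are uncertain. In MM.1S, 40 were tested with none past the edgeR threshold (background 0% higher, 0.00788% lower), 4 higher and 1 lower at an unadjusted p under 0.05 (5.42% and 4.58%), and 2 called higher and 0 lower by DESeq2 (background 1.46% and 1.29%), PSEN2, a gamma-secretase subunit, and MAML3. Of the Notch ligands, which Neuralized ligases act on in flies, Dll3 alone had an unadjusted p under 0.05 in any of the 3 comparisons, at 5.07 and 0 CPM in guided MPC-11 against 21.7 and 41.5 (edgeR adjusted p = 0.806).

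The 25 genes of the IRF7 and interferon induction list were read for the same purpose. In splenic plasma cells 22 were tested, 14 higher and 8 lower in flox/-, with a median log2 fold change of 0.31. In edgeR 0 passed the adjusted threshold and 1 was higher at an unadjusted p under 0.05, against 8.63% of all genes. DESeq2 called Irf7 alone, against 3.82% of all genes. Irf7 had 233 and 107 CPM in flox/- and 59.1 and 58.3 in flox/+, a log2 fold change of 1.53 ± 0.44 (DESeq2 adjusted p = 0.0457, edgeR adjusted p = 0.285). In MPC-11, 20 were tested, 15 higher and 5 lower, with a median of 0.34, 0 past the adjusted threshold in edgeR, 2 higher at an unadjusted p under 0.05 (3.49% of all genes) and the same 2 called by DESeq2 (1.08%). They were Tmem173 (STING), at 119 and 205 CPM against 29.5 and 20.5 (edgeR adjusted p = 0.195, DESeq2 adjusted p = 1.24e-07), and Ddx58 (RIG-I), at 48.4 and 30.2 against 2.33 and 9.48 (DESeq2 adjusted p = 0.0193, edgeR adjusted p = 0.528). In MM.1S, 24 were tested with a median of 0.11, 0 past the threshold in edgeR, 3 higher and 1 lower at an unadjusted p under 0.05 (5.42% and 4.58% of all genes), and IKBKE, a kinase that activates IRF7, called higher by DESeq2 (1.46%). TMEM173 lay the other way in MM.1S, at 1.19 and 1.018 CPM with the guide against 9.99 and 2.85 (edgeR adjusted p = 0.379).

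A list of NF-kB subunits and induced inhibitors, which also held Cd83, Birc3 and Traf1, was read because of the kappa-B letters near the Neurl3 start. All 15 genes were tested in splenic plasma cells, 13 higher and 2 lower, with a median log2 fold change of 0.94. In 12 the flox/- libraries lay above both controls, against 25.7% of all genes, and in 0 below both, against 2178 of 11887 genes. At an unadjusted p under 0.05 in edgeR 7 were higher, against 8.63%, and 0 passed edgeR's adjusted threshold. Above and below both controls lay 13 and 2 of the 40 Notch genes and 7 and 2 of the 22 interferon induction genes. For the 15 in the list of IRF4 and its DNA-binding partners the numbers were 7 and 0. DESeq2 called 3 higher, against 3.82% of all genes, of which Cd83, an activation marker of B and dendritic cells, had 120.2 and 59.5 CPM against 18.1 and 16.8 (DESeq2 adjusted p = 0.000276). Bcl3 had 24.5 and 19.6 CPM against 8.13 and 5.13, and Nfkbiz 12.9 and 14.7 against 4.56 and 3.07 (DESeq2 adjusted p = 0.0353 and 0.0439). Macrophage, T cell and B cell markers were higher in the same flox/- libraries, and their part in these values was not tested. In MPC-11, where Neurl3 was furthest apart, 13 were tested, 7 higher and 6 lower, with a median of 0.22. Without overlap, 4 lay higher and 2 lower in the guide libraries, against 1805 and 1765 of all 10670 genes. In edgeR 0 passed the adjusted threshold, and 1 in each direction had an unadjusted p under 0.05 (3.49% and 2.56% of all genes). There the inhibitor Nfkbia stood at 459 and 443 CPM with the guide against 283 and 272 (edgeR adjusted p = 0.779), and Nfkbie lay the other way, at 5.99 and 7.20 against 27.3 and 22.5 (DESeq2 adjusted p = 0.0364). DESeq2 called Nfkbie lower and 1 member higher, against 0.466% and 1.08% of all genes. The one called higher was Tnfaip3 (A20), an inhibitor of NF-kB signalling, named here after its values were seen (DESeq2 adjusted p = 0.0468). It did not pass edgeR's filter and had 254 and 0 counts with the guide and none with empty vector, so the call rests on 1 library. In MM.1S 10 of the 15 were higher and 5 lower with the guide, with a median of 0.14. There were 0 calls in edgeR or DESeq2. At an unadjusted p under 0.05 in edgeR 2 were higher, against 5.42% of all genes. Without overlap, 4 lay higher and 1 lower, against 2847 and 2398 of all 12696 genes.

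Of 15 factors in the list of IRF4 and its DNA-binding partners, 13 were higher and 2 lower in flox/- splenic plasma cells, with a median log2 fold change of 0.79. Irf8, the closest relative of IRF4 and abundant in B cells, had 178 and 157 CPM against 60.7 and 69.7 (log2 fold change 1.36 ± 0.29, DESeq2 adjusted p = 0.00649, edgeR adjusted p = 0.275). In edgeR 0 passed the adjusted threshold and 4 were higher at an unadjusted p under 0.05, against 8.63% of all genes. DESeq2 called Irf8, Batf2 and Batf3 higher, against 3.82%. Batf2 had 222 and 27 counts and Batf3 189 and 19 in flox/-, most of them in the macrophage-rich library 1, and neither had a count in flox/+. In MPC-11, with 7 higher, 4 lower and a median of 0.36, the AP-1 members Jund and Junb were the members furthest apart upwards by p, at 626 and 764 CPM against 272 and 379.8 (DESeq2 adjusted p = 0.0499) and 426 and 326 against 201 and 187 (DESeq2 adjusted p = 0.091). DESeq2 called Jund alone, against 1.08% of all genes, and in edgeR 0 passed the adjusted threshold, with 2 higher and Irf4 lower at an unadjusted p under 0.05 (3.49% and 2.56%). In MM.1S, with 8 higher, 6 lower and a median of 0.35, SPI1 (PU.1), the ETS partner of IRF4, stood at 36.5 and 38.4 CPM with the guide and 19.1 and 10.1 without (DESeq2 adjusted p = 0.0492). DESeq2 also called IKZF3 (Aiolos), a zinc finger partner, at 75.2 and 91.3 CPM against 49.1 and 37.1 (DESeq2 adjusted p = 0.0424, edgeR adjusted p = 0.312). These were 2 called higher, and IRF4 itself was called lower, against 1.46% and 1.29% of all genes. In edgeR 0 passed, with 4 higher and IRF4 lower at an unadjusted p under 0.05 (5.42% and 4.58%).

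The directions of these lists depended on scaling. With library size alone, where the median log2 fold change over all genes was 0.98 in the spleen, 37 of 40 Notch genes and all tested members of the interferon induction, NF-kB and IRF4 partner lists were higher in flox/-. In MPC-11 library size alone gave 17 Notch genes higher and 19 lower, with a median of -0.06 and an all-gene median of -0.18. In MM.1S it left the Notch split at 23 higher and 17 lower, where TMM gave a median of 0.15 against 0.01 over all genes.

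The 8 measured genes nearest to Neurl3 on chromosome 1, from 20.3 to 1420 kb away, had smaller log2 fold changes than Neurl3 in both mouse comparisons. Neurl3 was chosen for its rise in these comparisons, so most genes lie below it and the gap to its neighbours is a description. The nearest measured gene at lower coordinates was Uggt1, an endoplasmic reticulum folding sensor, 20.3 kb away. Its log2 fold change was 0.19 ± 0.58 in splenic plasma cells and 0.04 ± 0.41 in MPC-11. The nearest at higher coordinates, Arid5a, an RNA-binding regulator of cytokine transcripts, 33.1 kb away, had log2 fold changes of -0.30 ± 0.32 and -0.18 ± 0.42. Of the 8 nearest measured genes, 4 on each side, none passed an adjusted p of 0.05 in edgeR or DESeq2 in either comparison. Over all genes edgeR called 0% in the spleen and 0.0187% higher and 0% lower in MPC-11. DESeq2 called 3.82% higher and 1.43% lower in the spleen, and 1.08% and 0.466% in MPC-11, so calls among 8 genes would be rare. The log2 fold changes of the 8 ran from -0.51 to 0.87 in the spleen and from -0.61 to 0.60 in MPC-11.

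**Figure D4:**
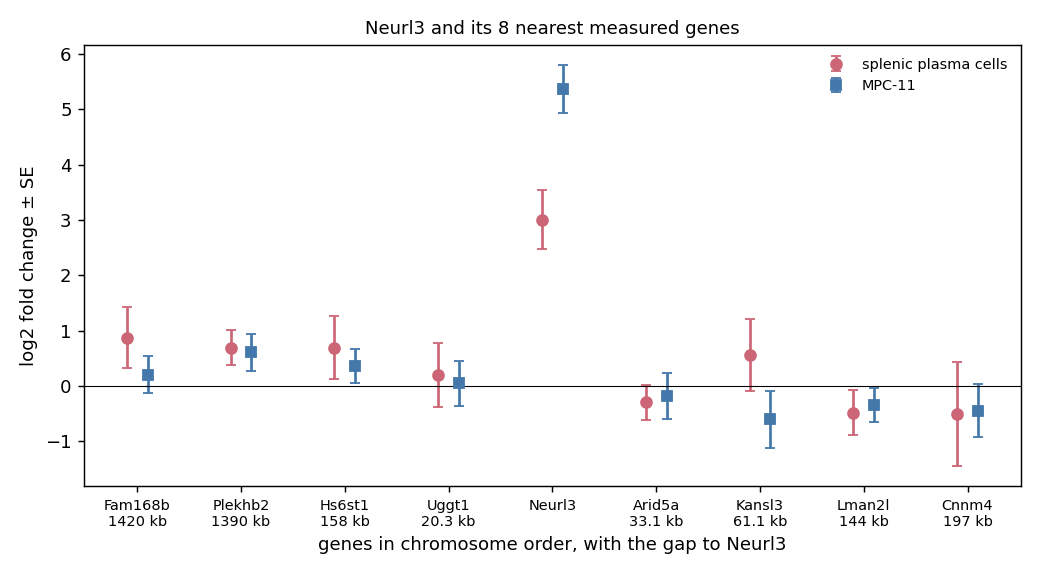
Log2 fold change with its SE of Neurl3 and its 8 nearest measured genes, in chromosome order and with the gap in kb, for splenic plasma cells (circles) and MPC-11 (squares). The neighbours lie between -0.61 and 0.87, and Neurl3, which was chosen for its rise in these comparisons, lies at 3.00 and 5.37.

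Genes with a pattern most like that of Neurl3 were listed by Pearson's r of log2(CPM + 1) over the 10 mouse libraries, which come from 6 groups, share 1 scaling and are not independent. The median r over 14492 genes was 0.05. The 10 highest ran from Nup62 at 0.93 to Kctd20 at 0.86, and between them stood Snx25, Gsn, Tmem131l, Smad1, Tmem229b, Cacna1i, Zbtb9 and Id3. Reads of Nup62 are uncertain because it overlaps Atf5 and Il4i1b. With library size alone in place of TMM, only Smad1 of these 10 remained among the 10 highest. Gsn, the actin-severing protein gelsolin, had 261 CPM in follicular B cells, 51.7 and 63.9 in flox/-, 13.8 and 11.6 in flox/+, 96.9 and 130.5 in guided MPC-11, 12.5 and 28.4 in empty vector MPC-11 and 23.5 in bone marrow plasma cells. Smad1, a BMP signal transducer, had 13.9 CPM in follicular B cells, 13.9 and 12.9 in flox/-, 6.51 and 7.26 in flox/+, 14.2 and 40.01 in guided MPC-11, 0.685 and 1.05 with empty vector and 2.89 in bone marrow plasma cells.

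Of 9710 genes tested in both mouse comparisons, 28.3% were higher in both. A total of 13 had a smaller log2 fold change of the 2 at or above that of Neurl3, which was 3.00. The 10 largest of them were Trim47, Slc4a8, Pdgfc, Podxl2, Slc1a3, Ccr6, Gm14548, Tyrobp, Id3 and Pira1. Most of these were near or at 0 in the controls, where a fold change is poorly bounded. Tyrobp, an adaptor of myeloid and NK cell receptors, had 397 CPM in flox/- library 1, 28.9 in flox/- library 2 and 28.1 and 7.94 in flox/+, so it followed the library with the most macrophage transcript, and it had 0.892 and 2.55 in guided MPC-11. Id3, an inhibitor of E proteins in B cells, had 128 CPM in follicular B cells, 19.6 and 48.9 in flox/-, 1.01 and 0 in flox/+, 5.84 and 9.17 in guided MPC-11 and 0.866 and 0.762 with empty vector. Ccr6, a chemokine receptor of mature B cells, had 190.2 CPM in follicular B cells, 5.21 and 3.99 in flox/- and 6.01 and 8.86 in guided MPC-11. DESeq2 called 11 genes higher in both comparisons, Neurl3 among them by the way it was chosen, with A130040M12Rik, Gsn, Id3, Lst1, Ltb, Serpinb1a, Slc4a8, Trim47, Tsc22d1 and Tyrobp.

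**Figure D5:**
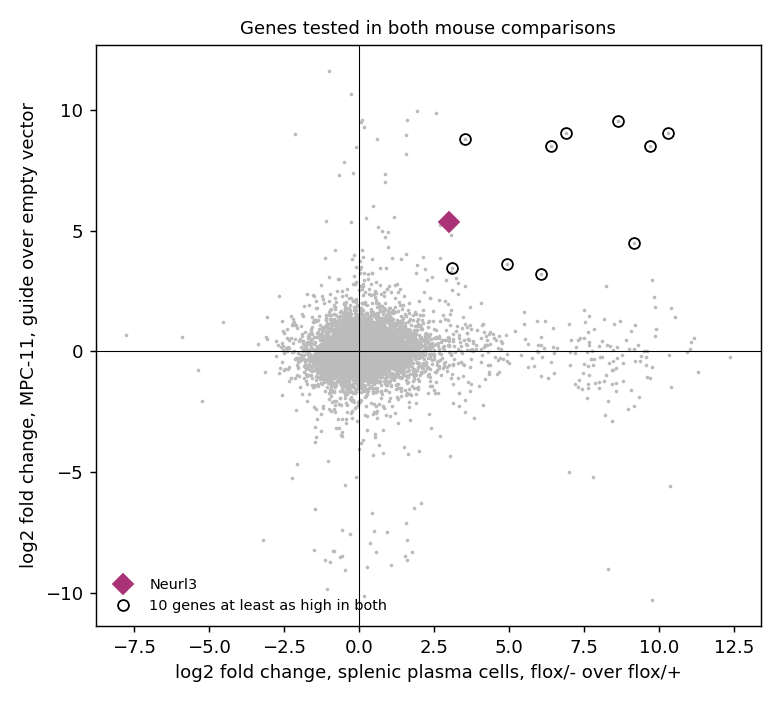
Log2 fold change in splenic plasma cells (flox/- over flox/+, x axis) and in MPC-11 (guide over empty vector, y axis) for the 9710 genes tested in both, one point each. Neurl3 (diamond) lies at 3.00 and 5.37, and the circled genes are the 10 largest of the 13 that lie at or above 3.00 on both axes.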

How the data were processed

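Gene tables of 14 RNA libraries were analysed. Per the labels, RNA was column-purified and libraries came from a tagmentation kit that does not mark strand. Tools listed in the submitters' processing notes are featureCounts, limma and Subread 1.6.0, and the builds are mm10 and hg38. The authors deposited counts, whole numbers of reads per gene, and a log2 FPKM value per gene and library, whose offset is not given in the sources used here. Rows without a symbol held at most 0.306% of a library. The 2 flox/+ count columns share a name, so they were called a and b. For each comparison its 4 libraries alone were fitted in edgeR (4.0.16, under R 4.3.3, with TMM, filterByExpr with a minimum count of 10, quasi-likelihood test, Benjamini-Hochberg adjustment over all genes tested, threshold 0.05). DESeq2 1.42.0 and limma 3.58.1 on log2 FPKM were alternatives, as were other scalings, no filter, no immunoglobulin genes and each library left out. CPM over the 10 mouse libraries used 1 TMM scaling. The edgeR fits were also run on counts simulated with known changes, and the outcome is not reported here. Chi-square per degree of freedom between libraries of a group was 37.2 to 266, so replicates differed by far more than counting error. Neurl3, the gene lists and the markers were chosen with earlier results of these data known. Named were the Neuralized family, Irf4, the 8 nearest genes, the 10 most alike and up to 10 that were at least as high in both mouse comparisons. List members were named from the 3 with the smallest p per comparison, where that p was under 0.05 or DESeq2 called them. In MM.1S DTX3L, MAML2, TLR9, NFKBIA and TNFAIP3, higher with the guide, and HEY2, lower, met this too but are not described above. A floor is 3 counts. RefSeq sequences are of GRCm38.p6. A protein sequence and a human genome were not used here.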

Additional observations from a re-analysis of the deposited data

How the results depend on the processing

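The mouse Neurl3 fold changes kept their direction under every alternative run. In splenic plasma cells the log2 fold change was 3.87 with library size alone, and leaving out 1 library gave 2.57 to 3.60. In MPC-11 it was 4.47 on log2 FPKM with limma, and leaving out 1 library gave 5.19 to 5.61. The log2 ratio of bone marrow plasma cells over follicular B cells moved from -6.59 to -8.45 with library size alone. For these the cause was not tested. The log2 ratio of NEURL3 in MM.1S was 3.05 to 3.31 over other scalings, DESeq2 (SE 4.76) and unfiltered edgeR (SE 3.29). It was 2.61 (SE 4.21) in unfiltered edgeR with the replicate block, chosen after seeing the data. Leaving out empty vector library 1 or guide library 1 gave 2.29 and 4.29. Without guide library 2 no guide count was left, without empty vector library 2 no control count, and log2 FPKM does not list the gene. Of 891 values of 81 single-gene results under the alternatives, 813 kept direction and side of the threshold, 54 passed it and 24 changed sign. None of the 81 passed the threshold in the main fit. No call could therefore be lost, and those that kept their side stayed uncalled.

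Against counts of 0 in edgeR, DESeq2 called 2, 1 and 2 Notch genes and 1, 2 and 1 interferon induction genes in the spleen, MPC-11 and MM.1S. Without a filter on low counts edgeR called 2 Notch genes in MM.1S and 1 interferon induction gene in MPC-11 and in MM.1S. Leaving out 1 library gave 0 to 1 Notch and 0 to 1 interferon induction genes in MPC-11. In MM.1S it gave 0 to 5 and 0 to 2, with the highest values without empty vector library 1. The share of all genes called is not given for the unfiltered fits or those that leave out 1 library. These counts therefore show how the calls moved and nothing particular to the lists.

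The labels do not say that a replicate number marks a pair. With it as a block, Neurl3 in MPC-11 was at 5.38 ± 0.51, in the spleen 2.75 ± 0.67 on log2 FPKM, and 1 interferon induction gene was called in MM.1S. The block moved all calls from 2 to 0 in MPC-11 and from 1 to 208 in MM.1S. Deviations of same-numbered libraries correlated at -0.13 and 0.15, and the crossed numbering gave 1 call in MPC-11.

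Small differences changed sign. Neurl4 in the spleen was at -0.17 on log2 FPKM, with or without the replicate block, and from -0.40 to 1.16 with 1 library left out, and in MPC-11 from -0.59 to 4.28. Irf4 in the spleen ran from -0.33 to 0.76. Library size alone turned Arid5a (0.61), Lman2l (0.40) and Cnnm4 (0.41) in the spleen and Uggt1 (-0.19) in MPC-11. With 1 library left out, Uggt1 ran from -0.43 to 1.28, Kansl3 from -0.054 to 1.59 and Cnnm4 from -0.996 to 0.22 in the spleen, and Uggt1 from -0.37 to 0.64, Fam168b from -0.060 to 0.48 and Arid5a from -0.59 to 0.14 in MPC-11. In MM.1S NEURL1 ran from -1.08 to 0.36 and NEURL4 from -0.94 to 0.62.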
